A study of Bubalus bubalis with 12 samples.

Results

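The genes CCNA2, GINS1, CSNK2B and MRE11A, grouped here as cell cycle and DNA replication genes, were followed for 2 histone marks in the sperm of water buffalo bulls (Bubalus bubalis). They are 4 of the 6805 genes with at least 2 usable probes on the array, and they hold 49 of its 177440 probes that are no controls. The members are all probes that the array's design names after one of these genes, and all 49 passed the filter on dim input signal. CCNA2, GINS1 and CSNK2B were picked from the H3K27me3 difference between the fertility groups, so that difference is a description here, without a test. For MRE11A the value behind the choice is not recorded; it ranked 25th in the comparison of the marks and 43rd by its H3K4me2 mean, so both of these are likewise given without a test.

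The subfertile group consisted of bulls SF1, SF4 and SF5 and the high-fertile group of bulls HF2, HF3 and HF5, and the sources used here give neither the measure of fertility nor the ages of the animals. Sperm came from cryopreserved semen, chromatin was cross-linked and cut with micrococcal nuclease, and DNA was recovered with an antibody to histone H3 dimethylated at lysine 4 (H3K4me2) or trimethylated at lysine 27 (H3K27me3). Each bull gave 1 array per mark, 12 in all, on which the recovered (ChIP) DNA was always labelled with Cy5 and that bull's input always with Cy3, so the dyes were never swapped. Values are log2 of ChIP over input after subtracting the array's median, so 0 is the typical probe and the absolute amount of a mark is not measured. A mark carried by fewer sperm and a weaker mark in all sperm cannot be told apart.

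Most histones of the sperm nucleus are replaced by protamines, and the nucleosomes that stay are known to be frequent at CpG-rich promoters. There H3K4me2 accompanies promoters of active or poised genes, and H3K27me3, placed by Polycomb complexes, accompanies silenced ones. Cyclin A2, encoded by CCNA2, activates the kinases CDK2 and CDK1 and carries cells through S phase into mitosis. GINS1 encodes a subunit of the GINS complex, which joins CDC45 and the MCM proteins to form the helicase that unwinds DNA at replication forks. CSNK2B encodes the regulatory subunit of casein kinase 2, a kinase of many substrates and so not a cell cycle gene in the strict sense. MRE11A encodes the nuclease of the complex with RAD50 and NBN, which binds and trims DNA double-strand breaks and also serves meiotic recombination.

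Most probes of each gene overlap each other in a single stretch, of 77 to 88 bases in CCNA2, GINS1 and CSNK2B and of 159 bases in MRE11A, with probes of 60 bases, so the gene values rest on the short pieces of DNA printed here, read from the probe sequences. Positions are those of the cattle build HGSC Btau_3.1, on which the array was designed, and the letters run with increasing coordinates; the strand of each gene is not given in the sources used here. The CCNA2 stretch lies at chr6:3380995-3381080 (6 probes, 5 annotated by the array as CpG island and 1 as promoter). The GINS1 stretch lies at chr13:54239298-54239374 (6 probes, 5 CpG island and 1 coding). The CSNK2B stretch lies at chr23:27437307-27437394 (9 probes, 8 CpG island and 1 promoter). The MRE11A stretch lies at chr15:522196-522354 (24 probes, 23 CpG island and 1 promoter). Capitals mark matches to the motifs described after the sequences.
CCNA2: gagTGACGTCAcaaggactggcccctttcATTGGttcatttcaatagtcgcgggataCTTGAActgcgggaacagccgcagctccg
GINS1: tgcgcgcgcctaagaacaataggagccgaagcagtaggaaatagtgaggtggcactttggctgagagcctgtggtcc
CSNK2B: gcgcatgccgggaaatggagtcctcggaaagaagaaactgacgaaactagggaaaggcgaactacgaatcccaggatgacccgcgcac
MRE11A: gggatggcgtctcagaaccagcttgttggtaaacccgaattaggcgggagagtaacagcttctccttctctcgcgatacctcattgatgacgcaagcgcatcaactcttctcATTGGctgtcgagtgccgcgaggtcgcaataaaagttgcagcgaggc

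Both strands were searched for motifs of a kind known from the promoter of human CCNA2 and from other cell cycle genes. These were the cAMP response element, TGACGTCA, and the CCAAT box, CCAAT. The cell cycle genes homology region was searched as CTTGAA. It was also searched in the variant TTTGAA. A further variant of it was TTCGAA. The E2F site was searched as TTTCCCGC. Its second form was TTTGGCGC. The CCNA2 stretch held TGACGTCA from its base 4, CCAAT read on the opposite strand as ATTGG from base 30, and CTTGAA from base 58, and these did not overlap. Of all 177440 probes, 0.184% held TGACGTCA, 8.12% held CCAAT and 3.83% held CTTGAA. These shares are for probes of 60 bases, and a match is more likely in the longer stretches of CCNA2 (86 bases) and MRE11A (159 bases). The MRE11A stretch held ATTGG from base 113, and the GINS1 and CSNK2B stretches held none of these letters. The motifs were picked with the sequences in view, and a match is a run of letters, not a measured binding site. The stretches were alike in base composition, with 54.7% G and C in CCNA2, 55.8% in GINS1, 55.7% in CSNK2B and 53.5% in MRE11A.

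The scanner marked 97.1% to 99.9% of the probes of an array as well above background in the input colour, and 93.9% to 99.98% in the ChIP colour. Among the H3K4me2 arrays the median ChIP signal was lowest in SF5 and HF5, at 356 and 588, and among the H3K27me3 arrays it was lowest in SF5, at 530. Correlations between arrays over all probes ran from -0.12 to 0.86. No gene on the array passed limma's Benjamini-Hochberg adjusted p of 0.05 for a fertility difference in either mark (0% of 6805, with lowest adjusted p of 1.00 for H3K4me2 and 0.705 for H3K27me3), while 2.91% of genes for H3K4me2 and 4.07% for H3K27me3 had an unadjusted p under 0.05. Probe counts on the sperm and spermatid markers were thin, with 2 of 8 genes tested, against 2 of 5 leukocyte, 4 of 5 epithelial and 1 of 5 somatic testis markers. On H3K4me2 arrays the median ratio of a marker list ran, in subfertile bulls, from -0.10 to 1.14 for sperm, from -0.08 to 0.60 for leukocyte, from 0.05 to 1.47 for epithelial and from 0.10 to 1.24 for somatic testis markers. In high-fertile bulls these ranges were -0.23 to 0.38 for sperm and -0.70 to 0.36 for leukocyte markers. They were -0.16 to 0.38 for epithelial and -1.59 to -0.42 for somatic testis markers. Of these list medians only the last, a single gene, did not overlap between the groups. Gene by gene, 1 of 2 leukocyte, 1 of 4 epithelial and 1 of 1 somatic testis markers had higher H3K4me2 ratios in all subfertile bulls. Among sperm markers this was 0 of 2, and over all genes 3.1%. On H3K27me3 arrays the ranges of all 4 lists overlapped between the groups. Chromatin ratios do not identify cells, and the part of other cells in the results was not tested.

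CCNA2 had a lower H3K27me3 ratio in all 3 subfertile bulls than in any high-fertile bull. Its H3K27me3 log2 ratio was -1.19 in SF1, -0.84 in SF4 and -0.95 in SF5, against 1.25 in HF2, 0.97 in HF3 and 0.57 in HF5. On the subfertile arrays this placed CCNA2 above only 2.28% to 11.3% of the genes, and on the high-fertile arrays above 79.4% to 98.0% of them. The means were -0.99 ± 0.18 in subfertile and 0.93 ± 0.34 in high-fertile bulls (SD, n = 3 each), a difference of -1.92, subfertile minus high-fertile. The gene was chosen by the unadjusted p of this contrast, so its SDs as well as its difference are part of the choice. In this mark 4.56% of all genes were lower without overlap. For H3K4me2 the ratio was -1.77 in SF1, -0.25 in SF4 and -0.36 in SF5, against 1.13 in HF2, 0.13 in HF3 and -0.20 in HF5. SF1 and HF2 stood farthest apart, and the groups were separated only by the narrow gap between SF4 and HF5; 3.48% of all genes were lower without overlap. The difference of the H3K4me2 means was -1.14 with a standard error of 0.58 (-0.79 ± 0.85 in subfertile, 0.35 ± 0.69 in high-fertile bulls, SD, n = 3 each), and it was -0.65 without SF1 and -0.76 without HF2.

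**Figure D1:**
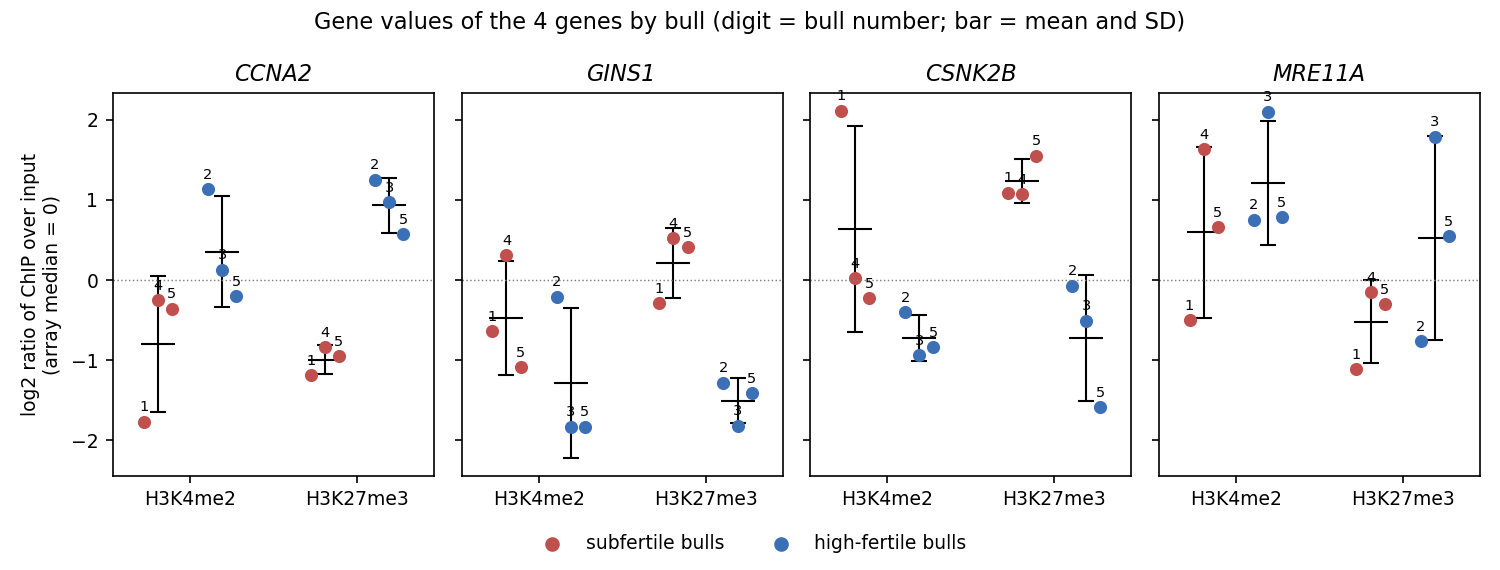
Log2 ratio of ChIP over input (vertical axis, array median at 0) of CCNA2, GINS1, CSNK2B and MRE11A for each bull and mark, subfertile bulls left of high-fertile bulls within each mark, with bull numbers beside the points and bars for mean and SD. For H3K27me3 the groups lie apart for CCNA2, GINS1 and CSNK2B, the values that chose these genes, and overlap for MRE11A.

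The CCNA2 difference was uneven along its 86 bases. All 6 probes had lower H3K27me3 ratios in the subfertile bulls without overlap, with differences from -3.33 to -0.84. The largest belonged to the probe at chr6:3381012-3381071, with -1.24, -2.06 and -1.47 in SF1, SF4 and SF5, against 2.01, 1.67 and 1.54 in HF2, HF3 and HF5. The smallest belonged to the probe at chr6:3381000-3381059, only 12 bases away, with -0.77, 0.09 and -0.24 in the subfertile and 0.17, 0.21 and 1.23 in the high-fertile bulls. The probes share most of their bases and are not independent measurements of the gene, which was itself chosen by the H3K27me3 separation. For H3K4me2, 2 of the 6 probes had groups that did not overlap, both lower in subfertile bulls. A pair of probes that the array assigns to the neighbouring gene BBS7, a Bardet-Biedl syndrome gene that takes part in ciliary transport, lies inside the same stretch at chr6:3381004-3381067. Their mean H3K27me3 ratio was -0.51 in subfertile and 0.81 in high-fertile bulls, a difference of -1.33 without overlap, so the array's names do not set CCNA2 apart from BBS7 here.

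Taken apart, the colours of CCNA2 differed by -1.30 in H3K27me3 ChIP, by -0.37 in H3K4me2 ChIP and by 0.71 in input, subfertile minus high-fertile. The H3K27me3 ChIP signal, as log2 relative to the array median, was -1.01 in SF1, -2.29 in SF4 and -2.42 in SF5, against -0.60 in HF2, -0.72 in HF3 and -0.50 in HF5, again with all subfertile bulls lower. This ChIP signal separated the groups for CCNA2 and GINS1, 2 of the 4 genes, and for 8.43% of all genes. It is the numerator of the ratio that chose CCNA2 and GINS1, so the count is not independent of the choice. The input signal, averaged over both arrays of a bull, was 0.14 in SF1, -1.43 in SF4 and -1.51 in SF5, against -1.88 in HF2, -1.92 in HF3 and -1.14 in HF5, so SF1 stood apart and the groups overlapped. The H3K4me2 ChIP signal averaged -1.66 ± 0.16 in subfertile and -1.29 ± 0.48 in high-fertile bulls (SD, n = 3 each), and the groups overlapped, as they did for all 4 genes; over all genes the H3K4me2 ChIP signal separated the groups for 6.79%. Since both arrays of a bull share its input DNA, the H3K4me2 ratio is not independent of the choice of the gene, and the H3K4me2 ChIP signal alone was tested instead: limma gave a difference of -0.37 with unadjusted p = 0.314 and Benjamini-Hochberg adjusted p = 1.00 over all genes.

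GINS1 differed in the opposite direction, with a higher H3K27me3 ratio in every subfertile bull than in any high-fertile bull. Its ratio was -0.29 in SF1, 0.52 in SF4 and 0.41 in SF5, against -1.28 in HF2, -1.82 in HF3 and -1.41 in HF5. The high-fertile values lay low on their arrays, above 1.32% to 6.23% of the genes. The subfertile values lay above 26.8% of the genes in SF1, 84.2% in SF4 and 74.6% in SF5. The means were 0.21 ± 0.44 in subfertile and -1.50 ± 0.28 in high-fertile bulls (SD, n = 3 each), a difference of 1.72. Here too the unadjusted p of this contrast chose the gene. In this mark 4.01% of all genes were higher without overlap. In H3K4me2 the values were -0.64 in SF1, 0.31 in SF4 and -1.09 in SF5, against -0.21 in HF2, -1.83 in HF3 and -1.83 in HF5. The groups overlapped, with HF2 above SF1 and SF5, and the means differed by 0.82 with a standard error of 0.60. The difference was 0.43 without SF4, 0.55 without HF3 and likewise without HF5, and 1.36 without HF2.

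At GINS1 the input moved as well as the ChIP signal. The input was 0.19 in SF1, -0.03 in SF4 and 0.03 in SF5, against 0.86 in HF2, 1.31 in HF3 and 0.80 in HF5, with all subfertile bulls lower and a mean difference of -0.93. Input separated the groups for GINS1 and CSNK2B, lower in the subfertile bulls in both. Over all genes it did so for 7.77%, with 4.6% higher and 3.17% lower in the subfertile bulls. Input is the denominator of the ratio that chose GINS1 and CSNK2B as higher in subfertile bulls, so this separation is not independent of the choice. The H3K27me3 ChIP signal averaged 0.32 ± 0.28 in subfertile and -0.44 ± 0.19 in high-fertile bulls (SD, n = 3 each), a difference of 0.75 without overlap. The ratio difference of 1.72 thus stood beside a ChIP difference of 0.75 and an input difference of -0.93. The H3K4me2 ChIP signal alone differed by -0.10 (limma, unadjusted p = 0.856, adjusted p = 1.00), the reverse of the direction seen in the ratio.

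The 6 probes of the GINS1 stretch moved together and a nearby probe did not follow. In the stretch the H3K27me3 ratio averaged 0.17 in subfertile and -1.90 in high-fertile bulls, a difference of 2.06, and each of the 6 probes separated the groups. These probes share most of their bases and the gene was chosen by this separation, so they are not independent measurements. The lone probe at chr13:54239943-54240002, in a CpG island by the array's annotation, gave 0.71, 0.84 and -0.05 in SF1, SF4 and SF5, against -0.91, 3.11 and 0.38 in HF2, HF3 and HF5. There the groups overlapped and the mean difference was -0.36, with HF3 far above the other bulls. The gene value of GINS1 is therefore in effect that of 77 bases.

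**Figure D2:**
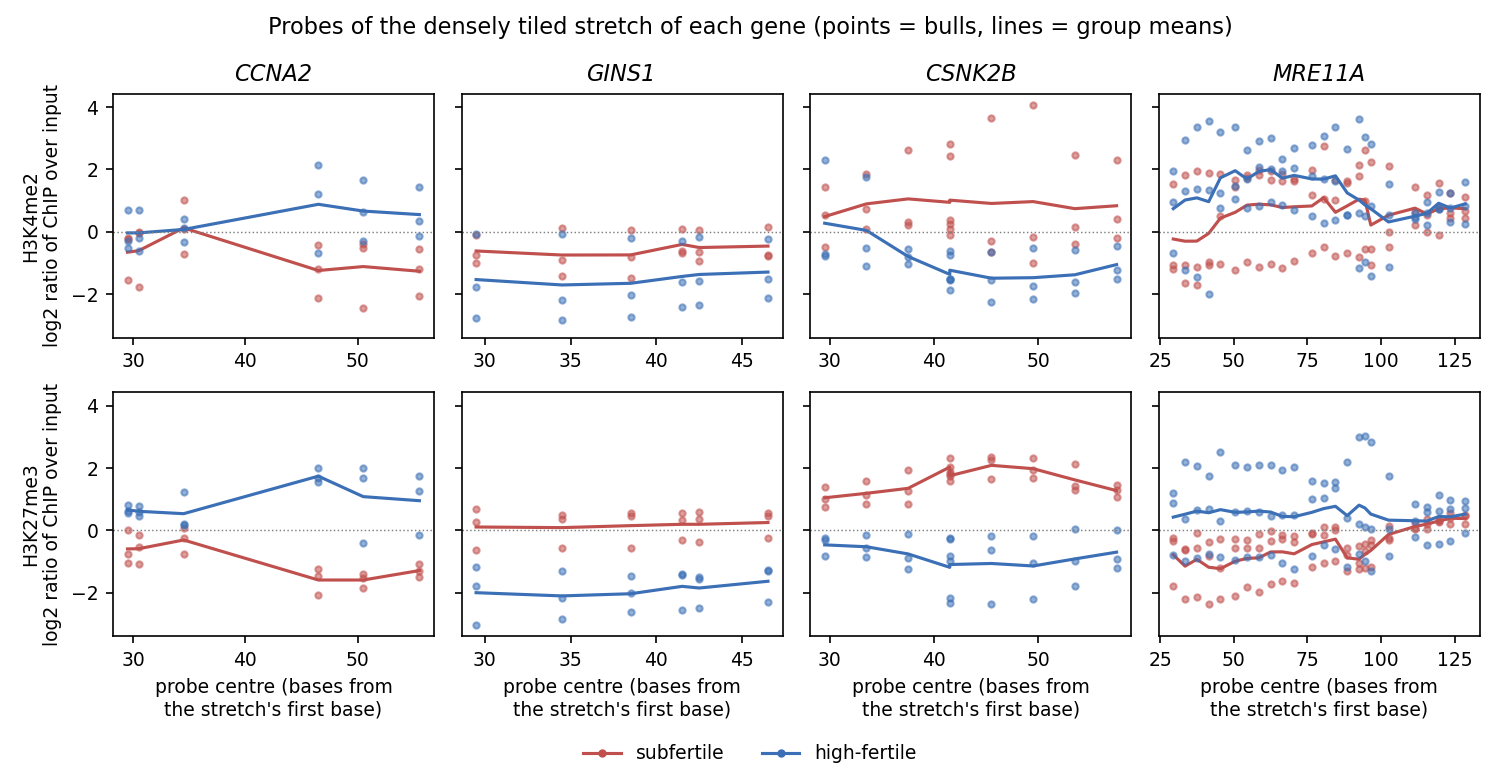
Log2 ratio of each probe (points, one per bull) against the position of the probe's centre in bases from the first base of the densely covered stretch, with lines through the group means, for H3K4me2 (top) and H3K27me3 (bottom). In H3K27me3 the group lines stay apart along the whole stretch in CCNA2, GINS1 and CSNK2B, and in MRE11A they meet towards the right end.

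CSNK2B had higher H3K27me3 ratios in all 3 subfertile bulls. The values were 1.09 in SF1, 1.07 in SF4 and 1.55 in SF5, against -0.07 in HF2, -0.51 in HF3 and -1.59 in HF5. Subfertile values exceeded those of 94.3% to 98.6% of genes on their arrays, while high-fertile values exceeded those of 4.51% to 45.8%. The means of 1.23 ± 0.27 in subfertile and -0.72 ± 0.78 in high-fertile bulls (SD, n = 3 each) differed by 1.95, and the unadjusted p of this contrast chose the gene. For H3K4me2 the ratio was 2.11 in SF1, 0.02 in SF4 and -0.23 in SF5, against -0.40 in HF2, -0.94 in HF3 and -0.84 in HF5. The groups did not overlap, as in 3.1% of all genes in this direction, but SF1 alone reached far above the rest, and the difference of 1.36 (standard error 0.64) fell to 0.62 without SF1.

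The input signal of CSNK2B was low in the subfertile bulls. It was -2.86 in SF1, -1.74 in SF4 and -2.02 in SF5, against -0.45 in HF2, -0.88 in HF3 and -0.96 in HF5, a difference of -1.44 with all subfertile bulls lower. On both arrays of SF1, 2 of the 11 probes had an input signal not well above background. With only probes whose input was well above background on all 12 arrays, the H3K27me3 ratio difference was 1.5, against 1.95. For H3K4me2 it was 0.96, against 1.36. On the H3K4me2 arrays of HF5 and of SF5, 2 probes had a ChIP signal not well above background. The H3K27me3 ChIP signal was -1.64 in SF1, -0.66 in SF4 and -0.33 in SF5, against -0.50 in HF2, -1.17 in HF3 and -2.59 in HF5, so the groups overlapped (difference 0.55). Most of the difference in the CSNK2B ratio was thus in the input, and how far differences in nuclease-cut input or in the buffalo sequence under these cattle probes contribute was not tested. The H3K4me2 ChIP signal alone differed by -0.15 (limma, unadjusted p = 0.768, adjusted p = 1.00), opposite in sign to the ratio.

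**Figure D3:**
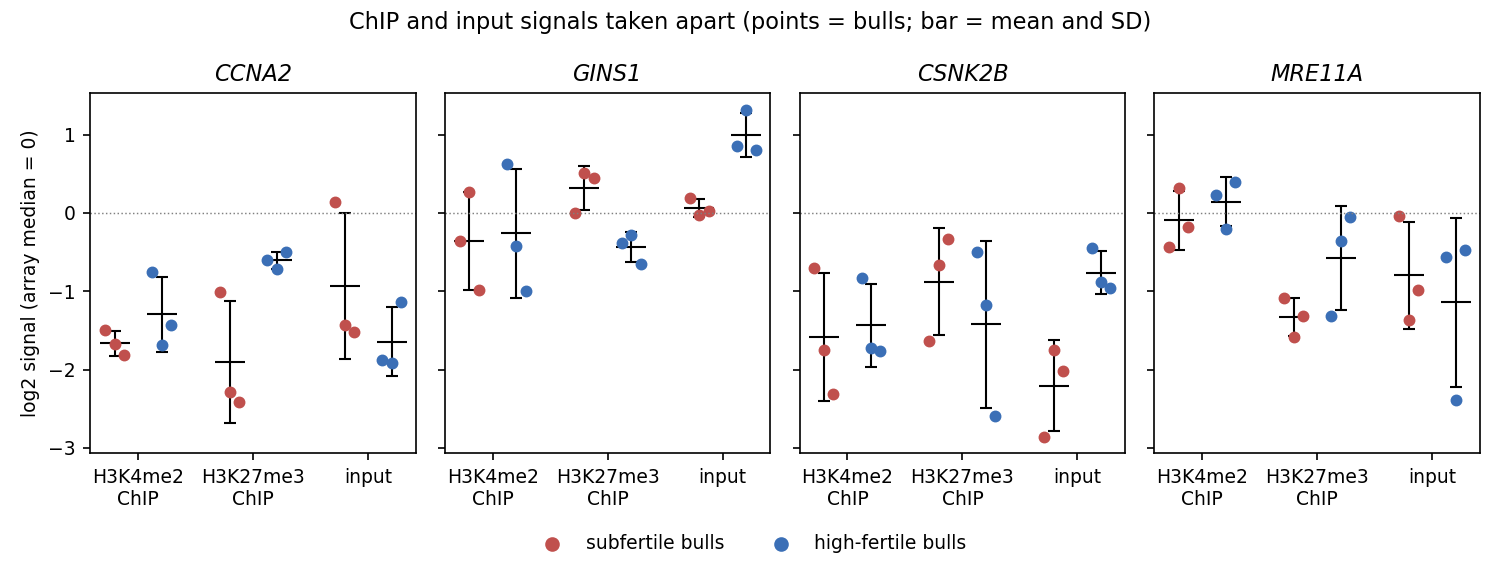
ChIP signal of each mark and input signal (mean of both arrays of a bull) as log2 relative to the array median, per bull, subfertile left of high-fertile, with bars for mean and SD. Input of GINS1 and CSNK2B lies lower in the 3 subfertile bulls, the H3K27me3 ChIP signal separates the groups for CCNA2 and GINS1, and the H3K4me2 ChIP signals overlap for all 4 genes.

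Within CSNK2B the separation belonged to 88 bases. In that stretch the H3K27me3 ratio averaged 1.59 in subfertile and -0.87 in high-fertile bulls (difference 2.46), and the H3K4me2 ratio 0.87 and -0.94 (difference 1.81), without overlap in either mark. Each of the 9 probes there separated the groups for H3K27me3, and 6 of them for H3K4me2. These probes share most of their bases and the gene was chosen by the H3K27me3 separation, so they are not independent measurements. The share of all probes that separate the groups is not given here. The promoter probes at lower coordinates did not separate the groups: at chr23:27432804-27432863 the H3K27me3 difference was 0.06 and at chr23:27435799-27435858 it was -0.71. The nearest neighbour, GPANK1, with 20 probes at chr23:27437564-27438057, averaged -0.25 in subfertile and 0.01 in high-fertile bulls for H3K27me3, also with overlap. The sequence at chr23:27437319-27437378 was printed at 2 spots of every array, as CpG island and as promoter probe. Over the 12 arrays its 2 spots differed by 0.03 to 0.75 log2 units with a median of 0.15, which measures the technical error between spots of an array and not the spread between bulls.

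MRE11A had high H3K4me2 ratios in both groups. They were -0.50 in SF1, 1.63 in SF4 and 0.66 in SF5, against 0.75 in HF2, 2.10 in HF3 and 0.78 in HF5. SF1 was the only bull below the array median, and SF4 and HF3 exceeded 99.4% and 98.6% of genes on their arrays. The group means of 0.59 ± 1.07 in subfertile and 1.21 ± 0.77 in high-fertile bulls (SD, n = 3 each) differed by -0.62 (95% interval -2.09 to 0.85; limma, unadjusted p = 0.365, adjusted p = 1.00). This difference was -0.07 without SF1, -0.17 without HF3 and -1.13 without SF4. With 2 of the 4 genes, CCNA2 and CSNK2B, showing H3K4me2 groups that did not overlap, the count stands beside 6.58% of all genes, and it rests on ratios that share the input of the H3K27me3 arrays.

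The H3K27me3 ratio of MRE11A was -1.11 in SF1, -0.15 in SF4 and -0.30 in SF5, against -0.76 in HF2, 1.79 in HF3 and 0.55 in HF5. The groups overlapped through HF2, which lay among the subfertile bulls. The means of -0.52 ± 0.52 in subfertile and 0.53 ± 1.27 in high-fertile bulls (SD, n = 3 each) differed by -1.05 (95% interval -2.54 to 0.44; limma, unadjusted p = 0.144, adjusted p = 1.00), a difference within the spread between bulls. Single bulls set its size: it was -0.42 without HF3 and -1.69 without HF2. HF3 combined the highest H3K27me3 ratio with the lowest input, -2.39, against inputs from -1.36 to -0.04 in the other bulls. The H3K27me3 groups did not overlap in 3 of the 4 genes, against 8.57% of all genes, but that is how these 3 were chosen.

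Along the 159 bases of MRE11A the fertility groups overlapped at all 24 probes in both marks. The mean H3K27me3 difference was -1.20 at the first probe, reached -1.90 at chr15:522212-522271 and was -0.15 at the last probe, chr15:522295-522354. The lone probe beyond it, at chr15:522424-522483, showed a difference of 0.02, with 0.18 in subfertile and 0.16 in high-fertile bulls. The ChIP and input signals of the gene also overlapped between groups, with differences of -0.76 for H3K27me3 ChIP, -0.24 for H3K4me2 ChIP and 0.35 for input.

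Set against each other within a bull, H3K4me2 exceeded H3K27me3 at MRE11A in 6 of 6 bulls. The difference, H3K4me2 minus H3K27me3, was 0.61 in SF1, 1.78 in SF4 and 0.96 in SF5, against 1.51 in HF2, 0.32 in HF3 and 0.23 in HF5, so fertility groups overlapped. The means over 6 bulls were 0.90 ± 0.90 for H3K4me2 and 0.00 ± 1.04 for H3K27me3 (SD), and H3K4me2 was the higher mark in all 6 bulls for 2.44% of genes. This is a description, since it may have chosen the gene. For the other genes the marks differed by less than the spread between bulls: by -0.19 at CCNA2 (95% interval -0.93 to 0.55, H3K4me2 higher in 2 of 6 bulls), by -0.24 at GINS1 (-1.02 to 0.55, 1 of 6) and by -0.30 at CSNK2B (-1.21 to 0.60, 2 of 6), with unadjusted p in limma of 0.586, 0.527 and 0.478 and adjusted p of 1.00 for each. No gene of the array passed this comparison by limma's adjusted p (0%), and 0.602% had an unadjusted p under 0.05. These intervals and p-values come from a fit with no block, which does not pair the arrays of a bull. With bull as a replicate block, limma's unadjusted p was 0.426 for CCNA2, 0.403 for GINS1 and 0.428 for CSNK2B. Their adjusted p was then 0.939, 0.934 and 0.939. That fit gave 260 genes with unadjusted p under 0.05, against 41 without the block, and 0 genes passed by adjusted p.

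At CCNA2 the order of the marks varied between bulls. H3K4me2 minus H3K27me3 was -0.58 in SF1 and 0.59 in SF4 and in SF5, against -0.13 in HF2, -0.84 in HF3 and -0.77 in HF5, with SF1 inside the high-fertile range. At CSNK2B it was 1.02 in SF1, -1.04 in SF4 and -1.78 in SF5, against -0.33 in HF2, -0.44 in HF3 and 0.74 in HF5, with no common sign in either group. At GINS1 it was -0.36, -0.21 and -1.49 in SF1, SF4 and SF5, against 1.07, -0.01 and -0.42 in HF2, HF3 and HF5.

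The choice by H3K27me3 had a limit at 10 genes per direction, ranked by unadjusted p among genes whose groups did not overlap. GINS1 stood 4th and CSNK2B 6th among genes higher in subfertile bulls, and CCNA2 stood 2nd among those lower. Just inside the limit were SERPINI1 (1.46, higher in subfertile bulls) and RUNDC3A (-2.82, lower), and just outside it FAM198B (1.37) and ZNF192 (-2.16).

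None of the direct partners of these proteins or of the wider pathway genes passed the test for a fertility difference, and neither did any other gene on the array. Of 134 cyclin, replication, repair and casein kinase genes listed, 92 are named on the array and 74 had enough probes. By adjusted p in limma 0 of 74 passed in either mark, as did 0 of all 6805 genes. By unadjusted p under 0.05 in limma there were 4 of 74 for H3K4me2 and 1 of 74 for H3K27me3. Over all genes these shares were 2.91% and 4.07%. Groups did not overlap in 6.76% of them for H3K4me2 and in 9.46% for H3K27me3, close to the 6.58% and 8.57% over all genes. The median H3K27me3 difference was -0.12 over the 74 genes, against -0.01 over all genes.

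Among the lists, cyclins and cyclin-dependent kinases had 3 genes with a positive and 18 with a negative H3K27me3 difference of 21 tested, with a median of -0.30, and 0 passed the test. Replication origin and helicase genes had a median of 0.34 (9 positive, 5 negative of 14), replication fork genes of 0.22 (11 and 6 of 17), double-strand break repair genes of -0.18 (5 and 12 of 17) and casein kinases of 0.09 (3 and 2 of 5). For H3K4me2 the medians of the same lists were -0.20, 0.02, 0.02, 0.01 and -0.24, against 0.02 over all genes. Of the 17 double-strand break repair genes, the H3K4me2 groups did not overlap for 1 higher and 3 lower in subfertile bulls, against 6.58% of all genes. By limma 3 of these 17 had an unadjusted p under 0.05, against 2.91% of all genes, and 0 passed by adjusted p. The cyclin list held 1 gene without overlap in H3K4me2, and the remaining lists held 0. The lists hold none of the 4 genes described above.

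CDK1, the mitotic kinase bound by cyclin A2, had an H3K27me3 ratio of -0.34 ± 0.95 in subfertile and 0.57 ± 0.26 in high-fertile bulls (SD, n = 3 each), a difference of -0.90 (limma, unadjusted p = 0.120, adjusted p = 1.00). CDK2, the S-phase partner, differed by 0.11 for H3K27me3, and by 0.38 for H3K4me2, where its groups did not overlap (0.36 ± 0.08 in subfertile and -0.02 ± 0.33 in high-fertile bulls, SD, n = 3 each; limma, unadjusted p = 0.376, adjusted p = 1.00). CKS2, a small kinase-binding protein, differed by -0.46 for H3K27me3. Of the helicase, GINS3 differed by -0.22, CDC45 by -0.35, MCM3 by -0.22, MCM6 by 0.66 and MCM7 by 0.26, each with overlapping groups. RBBP8, which works with the MRE11A complex in trimming breaks, differed by 0.07. CCNB1, GINS4, MCM4, MCM5 and CSNK2A2 had fewer than 2 usable probes, and CCNA1, GINS2, MCM2, RAD50, NBN, ATM and CSNK2A1 were not analysed here.

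**Figure D4:**
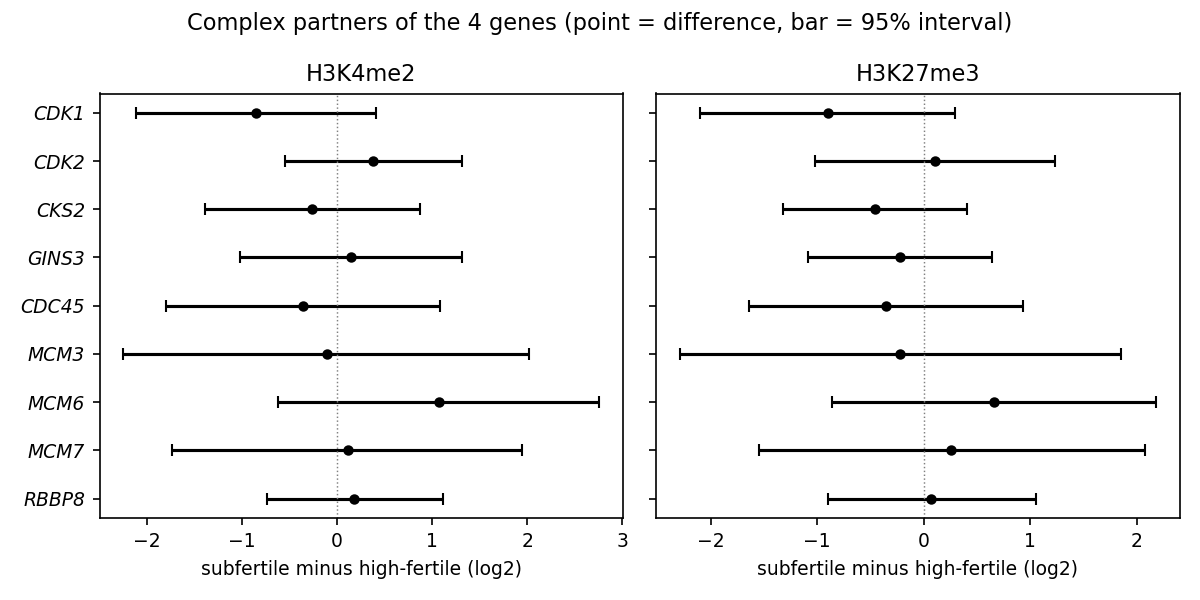
Difference of the log2 ratio, subfertile minus high-fertile, with its 95% interval from limma (3 bulls per group), for complex partners of the 4 genes and both marks. Every interval includes 0.

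Over the 12 arrays the values of CCNA2 and CSNK2B ran against each other (r = -0.76), GINS1 and CSNK2B ran together (r = 0.67) and MRE11A ran against CSNK2B (r = -0.65). These are descriptions over arrays that share bulls and input DNA in pairs, and the choice of genes fixed part of them. Among 6695 named genes on a single chromosome, the patterns most like that of CCNA2 belonged to NEUROD1 (r = 0.93), PNMA2 (0.90) and VPS33B (0.90). For GINS1 they were MEIS3 (0.92), SMYD1 (0.89) and SEC22C (0.89). For CSNK2B they were UMPS (0.91), SRPR (0.89) and C5H12orf66 (0.89), and for MRE11A ARMC2 (0.89), GSTM3 (0.88) and PPP2R4 (0.87). None of these 12 is a gene of the lists above.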

How the data were processed

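Sperm chromatin of 3 subfertile and 3 high-fertile bulls was hybridised on 12 two-colour Agilent arrays. The deposited intensity values per spot were background-subtracted, spatially detrended and dye-normalized with Agilent Feature Extraction 10.7, per the submitters' processing notes (10.7.3.1 per the file headers); quality flags of 0 and 1 come from the same files. A deposited table of log2 ratios, whose making is not stated, correlated with the scanner log2 ratios at r from 0.741 to 0.995 with column medians from -0.13 to 0.10, so its scale and direction are ChIP over input and it is not centred exactly; it served as an alternative.

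Here log2 of processed Cy5 over processed Cy3 was taken for 177372 probes with input well above background on at least 6 arrays. Outlier spots were set missing, arrays were centred on their median, and kept probes were averaged per gene (at least 2). Groups were compared with limma 3.58.1 in R 4.3.3 (lmFit, eBayes, two-sided, Benjamini-Hochberg over 6805 genes, threshold 0.05), with no block. The fit was also run on simulated ratios with independent noise on every array, and how many simulated differences it recovered is not given here. The arrays of a bull number within a group were taken as 1 bull, since r between their inputs, taken as deviations from the mean over bulls, was 0.937 or more, against at most 0.193 between bulls. HF5 shared slide 4 with SF1, and the other bulls had a slide each. Apart from slide 4, no slide held bulls of both groups, so fertility and slide cannot be told apart there. The number of arrays limits the precision: for the median gene the 95% interval was the difference plus or minus 1.20 (H3K4me2) or 1.10 (H3K27me3). The RefSeq table of the buffalo assembly listed 2 of the 4 gene names as printed on the array. The members, lists, motifs and alternatives were chosen with earlier results of these data known. Genes named were the 4 members, listed complex partners and the 3 genes most like each member.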

Additional observations from a re-analysis of the deposited data

How the results depend on the processing

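By limma's adjusted p, 0 genes passed under every alternative run, for each fertility comparison and for the comparison of the marks; the lowest adjusted p was 0.475 for H3K4me2 (slide as random block, chosen after seeing the data, 555 genes with unadjusted p under 0.05), 0.167 for H3K27me3 (normexp background) and 0.934 for the marks. That last value came with bull as a replicate block, which left 0 genes passing and gave 260 genes with unadjusted p under 0.05, against 41 without the block; within the comparison of the marks, the only one it was run for, this pairing changed no call. No paired analysis was possible because, in the fertility comparisons, the groups share only the number 5, which stands for a different bull in each. The slide block could not be fitted on the 6 arrays of a mark, so all 12 arrays entered.

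For the 4 genes, 4 of 208 values under an alternative changed sign. With ChIP signal alone the H3K4me2 fertility difference became -0.10 for GINS1 and -0.15 for CSNK2B. The mark difference of CCNA2 was 0.00 without SF1 (-0.30 to 0.00 over bulls left out), and that of GINS1 was 0.12 without HF5 and SF5. The H3K27me3 differences kept their sign in all 18 alternatives, from -2.13 to -1.30 for CCNA2, from 0.75 to 2.02 for GINS1 and from 0.55 to 2.67 for CSNK2B, with the smallest from ChIP signal alone. These genes were chosen with groups that did not overlap, so alternatives that only left out bulls or a slide could not change the sign. The same holds for SF1 minus HF5 within slide 4, which was -1.76 for CCNA2, 1.12 for GINS1 and 2.67 for CSNK2B. Without slide 4 the differences were -2.0 for CCNA2, 2.02 for GINS1 and 1.60 for CSNK2B. The H3K4me2 difference of CSNK2B was 2.95 within slide 4 and 0.57 without it. For MRE11A the H3K27me3 difference ran from -1.69 to -0.42, and it had an unadjusted p of 0.0201 (adjusted 0.789) without HF2 and 0.0345 (adjusted 0.536) with the slide block. The causes were not tested. Adjustment for GC content was chosen after seeing the data and changed no sign.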
